A study of Mus musculus with 764 samples.

Results

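The genes that mark T helper 17 (Th17) cells were followed through single IL-10-producing CD4+ T cells of the mouse. The set was named by gene symbol and held 8 of the 23997 gene rows: the cytokines Il17a, Il17f and Il22, the chemokine Ccl20, the receptors Il23r, Il1r1 and Ccr6, and the transcription factor Rora. All 8 members were present in the tables of both tissues. Of 764 cells, 190 came from the small intestine (SI) and the others from the spleen, in each case after treatment of the mice with anti-CD3, and every cell in both groups was sorted as CD4+ and positive for the IL-10 reporter. The mice carried an IL-10 eGFP reporter together with a Foxp3 mRFP reporter, the sort included Foxp3+ cells, and the littermates used were matched for age and sex. The labels do not say which wells held Foxp3+ cells, name no animal, and do not separate intraepithelial from lamina propria cells of the SI. Each tissue therefore counted as 1 sample, and no comparison has a replicate check or a test.

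Th17 cells are CD4+ T cells that secrete IL-17A, IL-17F and IL-22 at mucosal surfaces, where these cytokines act on epithelial cells to raise antimicrobial peptides and recruit neutrophils. IL-23 and IL-1β, sensed through the receptors encoded by Il23r and Il1r1, sustain the programme, while the nuclear receptor RORα (encoded by Rora) contributes to transcription of the cytokine genes. CCR6 guides such cells towards its ligand CCL20, and Th17 cells of the gut can also make IL-10.

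Total reads on genes ran from 6659 to 580400 per SI cell and from 25799 to 622997 per spleen cell. From the 190 SI cells 19 shallow cells and 34 called S or G2M were left out, which kept 72.1%, and 400 spleen cells (69.7%) were kept by the same rules. Medians were 324546 reads in kept SI cells and 353700 in kept spleen cells. SI cells lay in well columns 13 to 24 of plate p2, and spleen cells in the other columns of p2 and in all of p1. The spleen cells were therefore also read as 3 well sets: p1 columns 1-12 (69.3% of its cells kept), p1 columns 13-24 (76.3%) and p2 (63.5%). Within p2 the effect of well columns and that of tissue cannot be told apart. As a check of the labels, Cd3e and Cd4 each had at least 10 reads in at least 99.1% of kept SI cells outside and in all 24 cells inside the group with at least 10 Il17a or Il17f reads. Levels are given as CPM, the reads of a gene scaled to the same total in each cell. Among markers of other cell types in these 24 cells, 0 of 6 myeloid genes had a mean of 1 CPM, and of the B cell genes Ms4a1 and Pax5 were at 0, Cd79a was at 0.77 CPM and Cd79b was at 33.7 CPM, against 16.7 CPM in the other SI cells. The summed level of 8 epithelial markers was 32.3 CPM in these cells and 85.9 CPM in the other SI cells. Of the gamma-delta T cell list, 3 of 8 genes were measured and the T cell receptor constant genes were not analysed here.

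Il17a and Il17f are neighbours on chromosome 1, and the promoters of both are shown because these genes were found in the same cells. Il17a lies at chr1:20730905-20734496 on the plus strand and Il17f at chr1:20777146-20790617 on the minus strand (GRCm38). Il23r, at chr6:67422932-67491855 on the minus strand, is shown with them because its window held more than 1 copy of the letters searched. The 250 bases before the RefSeq start site (GRCm38.p6) are printed 5′ to 3′ on the strand of the gene, and capitals mark AGGTCA or its reverse complement TGACCT, the core to which RORα binds.
Il17a: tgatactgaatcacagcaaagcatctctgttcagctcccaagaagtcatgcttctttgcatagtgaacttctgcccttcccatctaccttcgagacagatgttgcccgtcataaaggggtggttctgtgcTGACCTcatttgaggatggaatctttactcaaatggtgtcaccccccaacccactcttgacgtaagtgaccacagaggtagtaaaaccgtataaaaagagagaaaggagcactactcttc
Il17f: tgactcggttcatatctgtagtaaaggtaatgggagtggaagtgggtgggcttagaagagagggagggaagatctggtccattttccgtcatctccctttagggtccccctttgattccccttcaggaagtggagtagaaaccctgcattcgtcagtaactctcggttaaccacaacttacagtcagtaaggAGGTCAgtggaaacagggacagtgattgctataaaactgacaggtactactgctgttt
Il23r: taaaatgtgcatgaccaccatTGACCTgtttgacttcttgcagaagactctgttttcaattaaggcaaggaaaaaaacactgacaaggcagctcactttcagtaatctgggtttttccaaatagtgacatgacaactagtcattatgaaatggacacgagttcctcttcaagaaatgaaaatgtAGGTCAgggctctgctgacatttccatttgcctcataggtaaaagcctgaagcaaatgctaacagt
These windows are chr1:20730655-20730904, chr1:20784271-20784520 and chr6:67491856-67492105. The match began 120 bases before the start site in Il17a, 58 bases before it in Il17f, and 66 bases before it in Il23r, whose other match lay farther upstream. All 8 members matched at least 1 window by symbol. Ccr6 and Il1r1 matched more than 1, and a member counted when any of its windows held the letters. The percents over all windows are of single windows, so the measures differ for these genes. Windows of Ccl20 and Ccr6 also held the core, so 5 of the 8 members had it, and Il22, Rora and Il1r1 had none. Over all 32817 windows of this length, 14.03% held it on either strand. The AP-1 motif TGANTCA occurred in the window of Il17a among the members, against 6.75% of all windows. The STAT motif TTCNNNGAA was found in Ccr6 alone among the members (7.01% of all windows) and the E-box CANNTG in 6 members (66.2% of all windows). These are matches of letters, not sites shown to be bound.

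The SI cells held more reads of 7 of the 8 members than spleen cells did, and Ccr6 differed little. A member counted as higher when the log2 ratio of mean CPM (with 1 CPM added to each side) was at least 1 against all spleen cells and had the same sign against each of the 3 spleen well sets. By this rule 7 members were higher, 0 were lower and 1 was neither. Of the 11866 genes with a mean of at least 1 CPM in either tissue, 11.2% were higher in the SI and 17.6% were lower. The median log2 ratio was 3.49 over the members and -0.22 over all genes. Of all genes called, 38.8% were higher, against 47.9% when TMM factors scaled the tissues and 49.4% with DESeq2 size factors, which moved the median of all genes to -0.06 and -0.04. With no filter on cells the split turned, with 72.6% of calls higher (24.96% of genes higher and 9.43% lower) and a median of 0.05. The same number of members was higher under each of these settings.

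**Figure D1:**
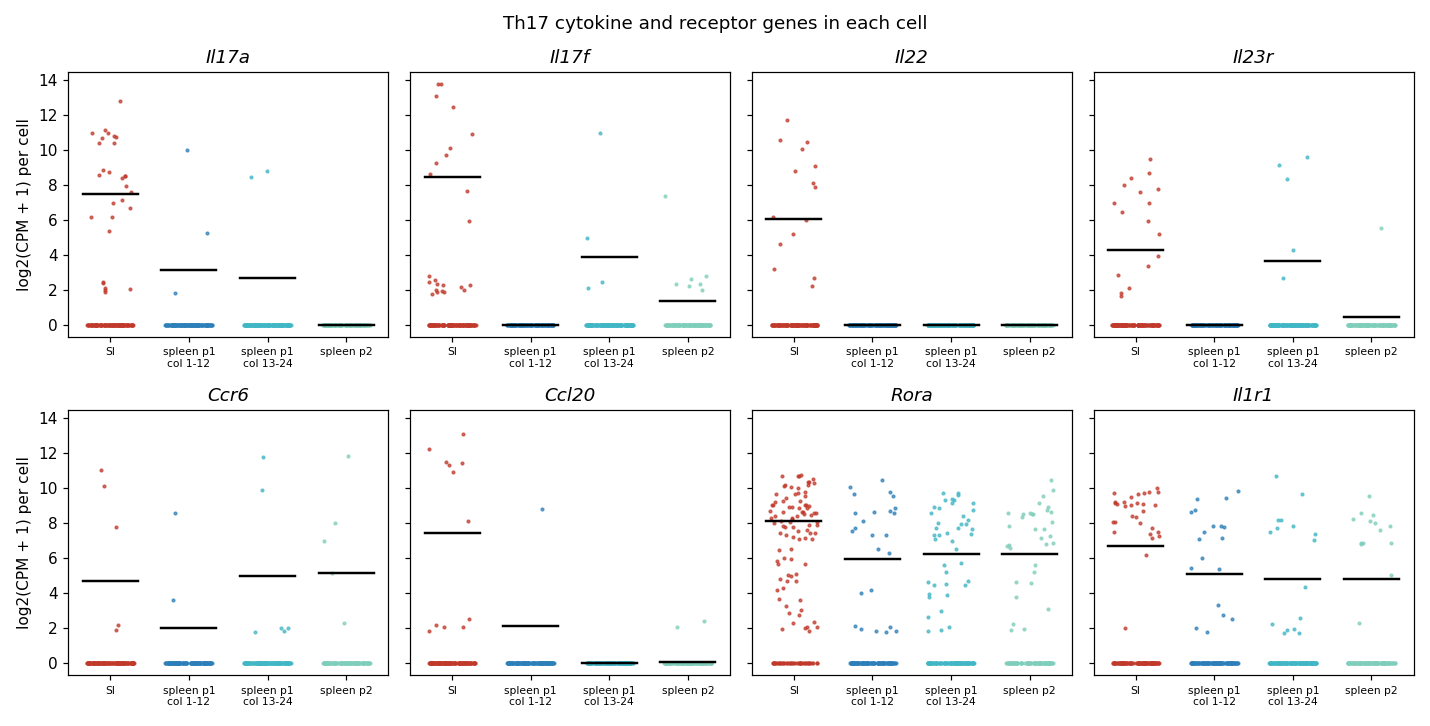
Level of each Th17 gene in each kept cell as log2(CPM + 1), for SI cells and for spleen cells of the 3 well sets. Points are single cells and black lines are log2 of the mean CPM + 1. Il22 had no read in any spleen set, Il17a had none in p2 spleen cells, and cells with Rora and Il1r1 appeared in every set.

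Il17a, the signature cytokine of the lineage, was detected with at least 10 reads in 23 kept SI cells (16.8%, exact binomial 95% interval 10.95 to 24.1). These cells ran from 39.5 to 7099 CPM with a median of 377.1 CPM, and 6 further SI cells had 1 to 9 reads. In the spleen 4 of 400 cells reached 10 reads (1%, interval 0.273 to 2.54), with 2 cells in p1 columns 1-12, 2 in p1 columns 13-24 and 0 in p2. Most cells of both tissues thus had no Il17a read. Mean CPM was 178.1 in the SI against 7.75, 5.49 and 0 in the spleen sets, a log2 ratio of 5.01 against all spleen cells. A single SI cell held 31% of the Il17a reads of that tissue, and with the highest cell of each tissue left out the log2 ratio was 5.37.

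Il17f, whose product pairs with IL-17A and acts through the same receptor, was carried by fewer cells than Il17a. At least 10 reads were counted in 11 SI cells (8.03%, interval 4.08 to 13.9), from 58.6 to 13788 CPM with a median of 1104 CPM. The top 3 SI cells held 77.2% of all Il17f reads in the tissue. In the spleen 3 of 400 cells reached 10 reads, and 1 of them held 93.8% of the reads. Mean CPM was 341.4 in the SI and 0, 13.8 and 1.56 in the spleen sets. The log2 ratio was 5.73, and 7.28 without the highest cell of each tissue. Reads of 1 to 9 were seen in 13 SI cells and in 6 p2 spleen cells but in 0 cells of p1 columns 1-12 and 2 of p1 columns 13-24. Transcripts of Il17a and Il17f shared 0 stretches of 50 bases.

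Il22, which acts on epithelial cells, had no read in any of the 400 kept spleen cells. This allows up to 0.75% of spleen cells to hold a read. In the SI 12 cells reached 10 reads (8.76%, interval 4.61 to 14.8), from 23.002 to 3350 CPM with a median of 354.2 CPM. Against a floor of 3 reads over kept spleen cells, the summed SI level of 69.4 CPM was 3231-fold higher for reads assigned to Il22. It was 2091-fold higher without the SI cell that held the most reads. Neither value is a lower bound, since Il22 reads lie in few cells, and SI cells with at least 10 reads averaged 744.8 CPM. Il22 has a near-identical copy, Iltifb, with which its transcripts shared 41% of their stretches of 50 bases, so the split of reads between these rows is uncertain. Iltifb had 6 reads in the SI against 3079 for Il22, and 13 reads in the spleen, all in 1 cell. With both rows counted together, the level was 69.6 CPM in the SI and 0.093 CPM in the spleen, which is 747-fold higher, or 483.99-fold without the top SI cell.

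Ccl20, the chemokine ligand of CCR6, was the least frequent of the secreted members in the SI. It reached 10 reads in 7 SI cells (5.11%, interval 2.08 to 10.2), from 274.1 to 8581 CPM with a median of 2756 CPM. A single spleen cell, in p1 columns 1-12, had 436.6 CPM, and no cell of the other spleen sets reached 10 reads. Mean CPM was 173.5 in the SI and 1.11 in the spleen, a log2 ratio of 6.37. The top 3 cells held 72.2% of the SI reads.

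Il23r, the receptor chain specific to IL-23, was detected in 11 SI cells (8.03%, interval 4.08 to 13.9) at 35.7 to 700 CPM. Mean CPM was 18.6 in the SI, against 0 in p1 columns 1-12, 11.3 in p1 columns 13-24 and 0.38 in p2. The log2 ratio was 1.92 against all spleen cells and 0.68 against p1 columns 13-24, where 3 cells carried it. The latter was the lowest ratio of any of the 7 higher members against a single spleen set.

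Il1r1, the signalling receptor for IL-1, was the receptor member seen in most cells. At least 10 reads were found in 29 SI cells (21.2%, interval 14.7 to 28.97). The spleen had 35 of 400 (8.75%, interval 6.17 to 11.96). Its sets held 13, 9 and 13 such cells, or 9.77%, 6.21% and 10.7% of each. Mean CPM was 100.5 in the SI and 32.7, 27.1 and 26.3 in the spleen sets, a log2 ratio of 1.77.

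Ccr6 was rare in both tissues. It reached 10 reads in 3 SI cells (2.19%, interval 0.454 to 6.27), and the spleen held 6 (1.5%). Mean CPM was 25.1 in the SI and 2.98, 30.1 and 33.6 in the spleen sets, so the sign of its log2 ratio turned from 2.72 against p1 columns 1-12 to -0.25 and -0.40 against the others. Leaving out the highest cell of each tissue moved the ratio from 0.17 to -0.37.

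Rora was the most widely expressed member. It had at least 10 reads in 72 SI cells (52.6%, interval 43.9 to 61.1), and the spleen count was 76 (19%, interval 15.3 to 23.2). The share was 12.8%, 22.1% and 22.1% in the 3 spleen sets, and mean CPM was 274.2 in the SI against 61, 72.6 and 73.6, a log2 ratio of 1.97.

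**Figure D2:**
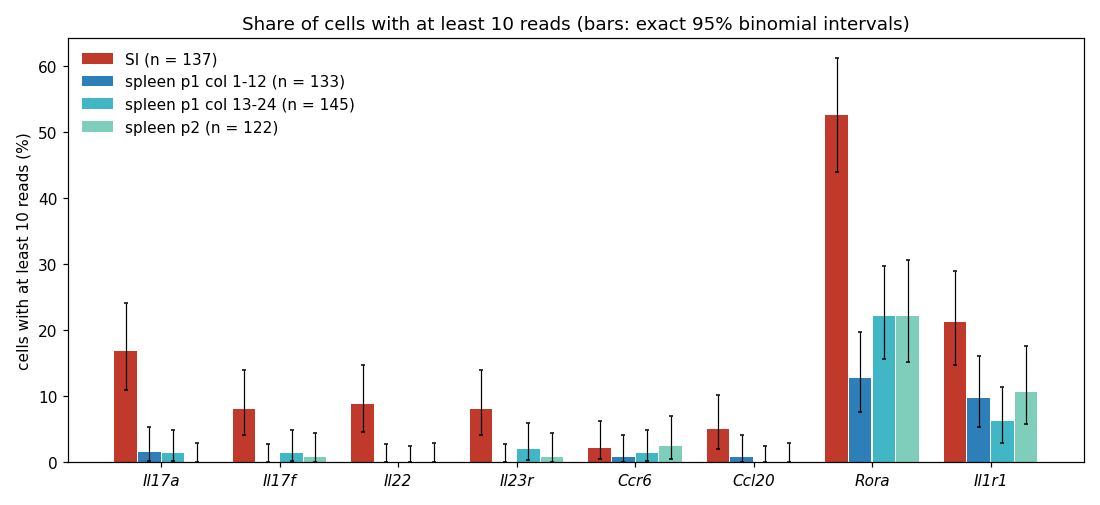
Percent of kept cells with at least 10 reads of each Th17 gene in the SI and in the 3 spleen well sets. Error bars are exact 95% binomial intervals, which cover counting error only. Rora reached 52.6% of SI cells, Il1r1 21.2% and Il17a 16.8%, and Ccr6 was near 2% in the SI.

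Scaled to the exon length of each gene, mean SI levels were in the order Il17f (168.9 CPM per kb), Il17a (152.1), Ccl20 (122.1), Il22 (58.9), Rora (20.98), Il1r1 (15.8), Ccr6 (10.8) and Il23r (7.49). The SD over SI cells exceeded the mean for each of the 8 members. That SD is spread between cells and not the error of a mean, so whether neighbours in this order differ was not tested. In the spleen Ccr6 was at 9.55 CPM per kb (5.59 without the cell that held the most), Rora at 5.28 and Il1r1 at 4.51. In p1 columns 1-12 Ccr6 was at 1.28 CPM per kb, under Il17a at 6.62, Il1r1 at 5.13, Rora at 4.67 and Ccl20 at 2.31. A single cell held 95.5% of the Il17a reads of that set, 1 cell held 96.9% of its Ccr6 reads, and 1 held 100% of its Ccl20 reads.

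The members were found in the same SI cells. At least 2 of the 7 members other than Rora reached 10 reads in 27 SI cells (19.7%, interval 13.4 to 27.4), and the spleen had 6 such cells (1.5%). A single SI cell, in well L19, had at least 10 reads of all 8 members, from 35 reads of Il1r1, 49 of Il23r and 56 of Ccr6 to 650 of Ccl20 and 3512 of Il17f. That cell also had 4818 genes with a read, the most among the cells with Il17a or Il17f, and whether it held more than 1 cell was not tested. No spleen cell had more than 4 members.

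Of the 11 cells with Il17f, 10 also had Il17a, and all 7 cells with Ccl20 and all 3 cells with Ccr6 had Il17a. Conversely, 10 of the 23 cells with Il17a had Il17f (43.5%), 7 had Ccl20 and 3 had Ccr6.

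Both cytokine receptors were found in cells with Il17a more often than in the rest. Il1r1 had at least 10 reads in 17 of 23 SI cells with Il17a (73.9%) and in 12 of the SI cells without it (10.5%). Il23r did so in 8 of 23 (34.8%) and in 3 of the rest (2.63%). Of the 11 cells with Il23r, 10 had Il1r1. Across kept SI cells the Spearman correlation of log2(CPM + 1) with Il17a was 0.52 for Il1r1, 0.49 for Il23r and 0.47 for Il17f. These points share depth and a plate, most are 0, and the values are descriptions.

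Il22 was also found outside the cells with Il17a. Of its 12 SI cells, 8 had Il17a, 10 had Il1r1, 6 had Il23r and 11 had Rora, and 4 had neither Il17a nor Il17f. The cells with Il17a or Il17f held 57.3% of all Il22 reads in the SI, against 99.9% of Ccl20 and 99.8% of Ccr6 reads. A single SI cell without Il17a or Il17f held 1101 of the Il22 reads, and without it the share of Il22 reads was 89.2%. Rora had at least 10 reads in 19 of 23 cells with Il17a (82.6%) and in 53 of the rest (46.5%). Of the 72 cells with Rora, 43 had no other member.

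**Figure D3:**
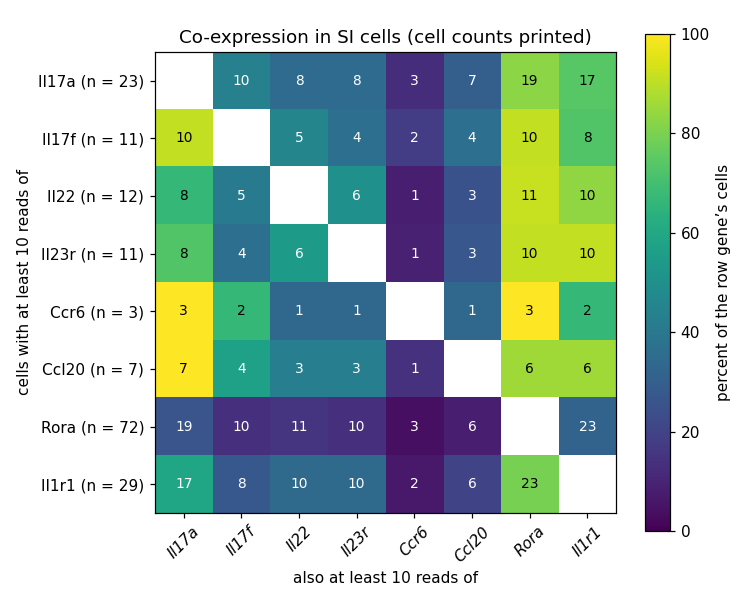
Co-expression of the 8 Th17 genes over the kept SI cells. Colour is the percent of the cells with at least 10 reads of the row gene that also had at least 10 reads of the column gene, and printed numbers are cells with both. All 7 Ccl20 and all 3 Ccr6 cells lie in the Il17a column.

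At least 10 reads of Il17a or Il17f were found in 24 kept SI cells (17.5%, interval 11.6 to 24.9), of which 10 had both, 13 had Il17a alone and 1 had Il17f alone. In the spleen the count was 6 of 400 (1.5%, interval 0.552 to 3.24), with 2, 3 and 1 cells in the sets. On the SI side of the plate 8 of 68 cells in columns 13 to 18 (11.8%) and 16 of 69 in columns 19 to 24 (23.2%) were positive, including 5 of 10 in column 24. The part of well position in the share was not tested.

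**Figure D4:**
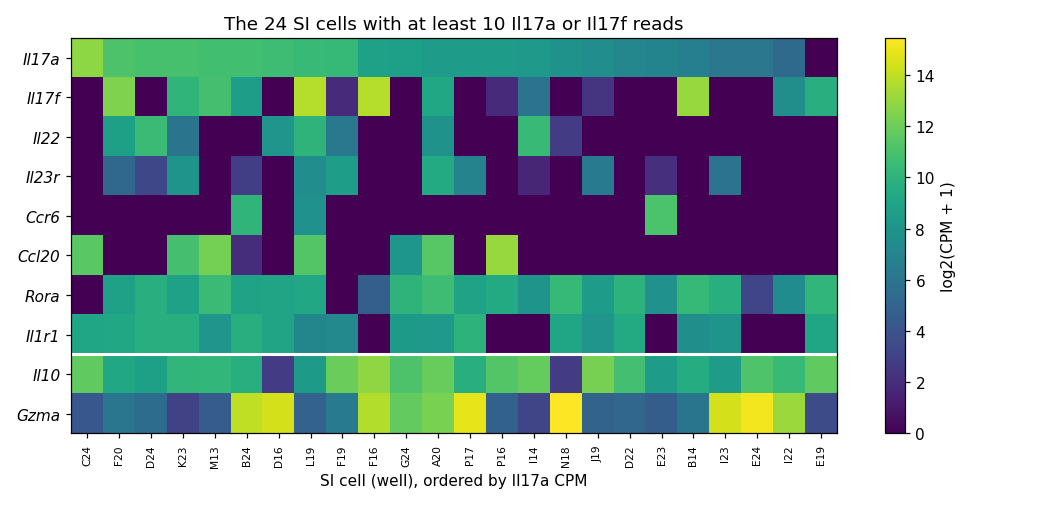
Levels as log2(CPM + 1) of the 8 Th17 genes (above the white line) and of Il10 and Gzma (below it) in the 24 SI cells with at least 10 Il17a or Il17f reads, ordered by Il17a. Il10 is high in most columns, while Gzma is high in 10 cells and low in 14.

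Gzma, which encodes the protease granzyme A of cytotoxic granules, was lower in the cells with Il17a or Il17f than in other SI cells. The median was 64.6 CPM in the 24 cells with Il17a or Il17f and 43429 CPM in the others, and means were 8451 and 42739 CPM. At least 10 reads were counted in 16 of 24 (66.7%, interval 44.7 to 84.4) and in 90.3% of the others (interval 83.2 to 95.04). Gzma had 2 modes and no cell between them: SI cells had either 2 to 31 reads or 1213 to 85146 reads. The upper mode, set at 100 reads after the values were seen, held 10 of the 24 cells (41.7%, interval 22.1 to 63.4) and 97 of the others (85.8%, interval 78.03 to 91.7). Every kept SI cell had a Gzma read. Among p2 spleen cells 83.6% had at least 1 Gzma read but 10 cells (8.20%) had at least 10, and in the p1 sets 6.77% and 8.28% had a read, so a threshold of 10 reads lies within the low mode of that plate. Median depth was 326102 reads in the cells with Il17a or Il17f and 324546 in the others.

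Other members, whose cells overlap with these, were read the same way. Under 100 Gzma reads were found in 13 of 23 cells with Il17a (56.5%), 7 of 11 with Il17f (63.6%), 8 of 12 with Il22 (66.7%), 5 of 7 with Ccl20 (71.4%), 6 of 11 with Il23r (54.5%) and 17 of 29 with Il1r1 (58.6%). For Rora the count was 22 of 72 (30.6%). Among SI cells without the member the share ran from 12.04% for Il1r1 to 20.9% for Ccr6. In the spleen Gzma was low in most cells, with at least 10 reads in 5.5% of them. Of the spleen cells, 9 had at least 100 Gzma reads, and the highest had 2175. None of the 6 spleen cells with Il17a or Il17f had 10 Gzma reads. Since few spleen cells of any kind reached 10 reads, this cannot show whether the SI pattern held in the spleen.

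Il10, the gene behind the reporter used for the sort, differed less. The median was 1288 CPM in the 24 SI cells with Il17a or Il17f (lowest 5.41, highest 7585) and 1852 CPM in the others (0 to 10333), and means were 1979 and 2442 CPM. At least 10 reads were counted in 22 of 24 cells (91.7%, interval 73.003 to 98.97) and in 96.5% of the others (interval 91.2 to 99.03), and these ranges overlapped. Most cells with Il17a or Il17f thus also carried Il10. In the spleen 5 of the 6 cells with Il17a or Il17f had at least 10 Il10 reads (83.3%), against 76.9% of the other spleen cells. All 5 lay in p1, and the single such p2 cell had 3.58 CPM of Il10. Il10 differed between the sets, with a median over the other cells of 1261 CPM in p1 columns 1-12, 1203 CPM in p1 columns 13-24 and 130.3 CPM in p2. Over the cells with Il17a or Il17f it was 1921 CPM in p1 columns 1-12 (2 cells) and 6915 CPM in p1 columns 13-24 (3 cells). For the whole spleen the medians were 4762 CPM in these 6 cells and 919.7 CPM in the others. Outside p2 the direction was opposite to that in the SI, but it rests on few cells and was not tested.

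**Figure D5:**
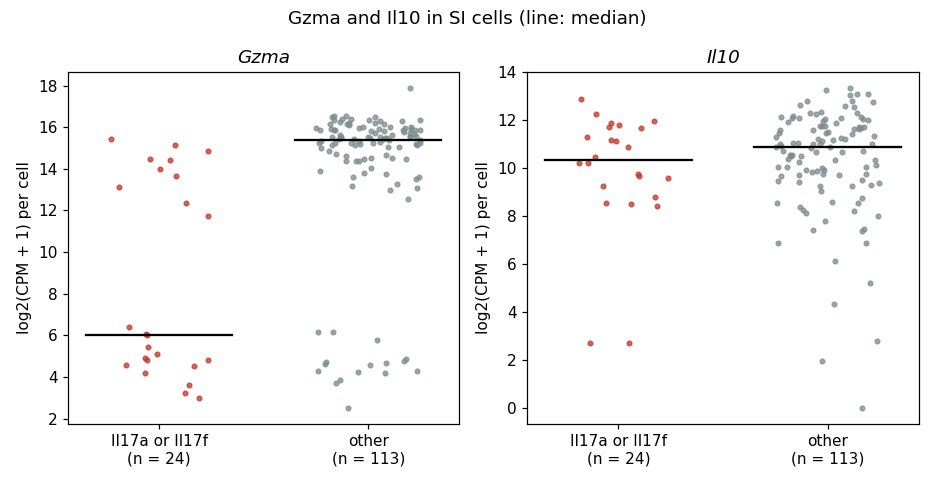
Gzma (left) and Il10 (right) as log2(CPM + 1) in the 24 SI cells with at least 10 Il17a or Il17f reads and the others. Points are cells and lines are medians. Gzma falls into a low and a high group of cells in both, while Il10 overlaps between them.

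Other genes of the Th17 programme were read in the same 2 groups of SI cells. Over all 11288 genes with a mean of at least 1 CPM in either, 17.1% were at least 2-fold higher in the cells with Il17a or Il17f and 24% at least 2-fold lower. All 8 members were higher, which the choice of cells fixes for Il17a and Il17f. Ccl20 (0.12 CPM) and Ccr6 (0.055 CPM) were under 1 CPM in the other cells. They were thus counted only through the cells where they were high, and could not have been called lower. Of 9 other Th17 transcription factors 2 were higher and 0 lower: Runx1, a Runt-domain factor, at a log2 ratio of 1.01, and Irf4, a factor of Th17 differentiation, which lay at the 2-fold limit (389.4 against 194.2 CPM). Nfkbiz lay just short of that limit in the other direction (506.5 against 1003 CPM, a log2 ratio of -0.98). Stat3 had at least 10 reads in all 24 cells and 96.5% of the others, at a log2 ratio of 0.08. Maf had them in all 24 cells and 88 of the others (77.9%), at a log2 ratio of -0.06. Of 14 receptors and signalling partners measured at that level, 1 was higher and 2 were lower. Il1r2, the decoy receptor for IL-1, was higher, with at least 10 reads in 8 of 24 cells (33.3%) against 5 of the others (4.42%). Il1rap and Il6st were lower. Il1rap reached 10 reads in 0 of 24 cells and in 3 of the others, so its call rests on very few cells. Il6st did so in 3 of 24 (12.5%) against 24 of the others (21.2%).

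Among receptors for IL-17 and IL-22, Il17re, a receptor chain for IL-17C, had at least 10 reads in 9 of 24 cells (37.5%) against 3 of the others (2.65%). Of 7 such genes measured at that level 3 were higher and 1, the IL-10 receptor chain Il10ra, was lower. The further higher genes rest on few cells: Il17rc reached 10 reads in 1 of 24 cells against 0, and Il17rd in 1 against 3. The other IL-17 ligands Il17b, Il17d and Il25 had no read in either group, and Il17c had none in the SI. Of 6 other Th17 cytokines measured, Tgfb1 was higher at a log2 ratio of 1.08 and Csf2 lower. Csf2 reached 10 reads in 0 of 24 cells and in 1 of the others, so its call rests on very few cells. Il21 was at 39.6 against 67.5 CPM.

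Type 1 and cytotoxic genes showed the opposite pattern, with 11 of 14 at least 2-fold lower and 0 higher. Those 11 include Gzma, described above, and Eomes, which reached 10 reads in 0 of 24 cells and in 1 of the others. The T-box factor Tbx21 had at least 10 reads in 3 of 24 cells (12.5%) against 52 of the others (46.02%), Prf1, which encodes perforin, in 1 (4.17%) against 66 (58.4%), and Gzmk in 0 against 65 (57.5%). Ifng was at 353.1 against 601 CPM and was not past 2-fold. Of 5 type 2 and regulatory T cell genes measured at that level, 1 was higher and 1 lower: Foxp3 was found in 1 of 24 cells and in 4 of the others, Il2ra was higher, with 16 of 24 (66.7%) against 30 (26.5%), and Gata3 was lower, at 4.18 against 52.8 CPM.

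Of 10 genes of gut homing and residency, 3 were higher and 4 lower. Ccr9, a receptor for homing to the small intestine, was at 1945 CPM in the cells with Il17a or Il17f and 802 CPM in the others, and Ccr2 was at 470.98 and 113.6 CPM. Itgae, the integrin chain that binds epithelial cells, had at least 10 reads in 3 of 24 (12.5%) against 79 of the others (69.9%), Itga1 in 1 (4.17%) against 57 (50.4%), and Cd8a in 0 against 27 (23.9%). Since the labels do not say which SI cells were intraepithelial, the place of a cell in the tissue and the Th17 genes cannot be told apart here. Markers also listed for other lymphocytes moved with the group: Kit had at least 10 reads in 8 of 24 cells (33.3%) against 3 (2.65%) and Blk in 7 (29.2%) against 2 (1.77%), while Ncr1 had no read and Sox13 and Cd163l1 reached 10 reads in 0 of the 24. Of the innate lymphoid list 2 of 4 genes measured were higher and 1 lower (summed level 539.7 against 346.9 CPM), and of the gamma-delta T cell list 1 of 2 was higher and 1 lower (139.7 against 10.3 CPM). The lower genes of these lists, Il1rl1 and Sox13, reached 10 reads in 0 of the 24 cells and in 3 and 1 of the others. The part of these cell types in the result was not tested. None of 3 alpha-beta T cell genes, 4 co-inhibitory receptors or 1 B cell gene measured was past 2-fold, 1 innate-like T cell gene was lower, and 2 of 7 epithelial genes were higher and 3 lower. These calls rest on few cells. The innate-like gene, Klrb1c, reached 10 reads in 0 of 24 cells and 1 of the others. The higher epithelial genes, Vil1 and Fabp2, did so in 1 of 24 cells each and 0 of the others. The lower ones, Epcam, Lgals4 and Reg3b, did so in 0 of 24 cells and in 5, 10 and 3 of the others. Myeloid markers had no read in the cells with Il17a or Il17f.

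The 8 non-member genes with the largest gain in share of cells were Tmem176b (95.8% against 14.2%), Tmem176a (87.5% against 8.85%), Dhrs3 (83.3% against 6.19%), Ppp1r14c (79.2% against 7.96%), Ccr1 (75% against 6.19%), Aqp3 (66.7% against 3.54%), Ltb4r1 (70.8% against 8.85%) and Tmem64 (75% against 14.2%). Ccr1 and Ltb4r1 encode receptors for chemokines and for leukotriene B4, and Aqp3 encodes a water and glycerol channel. The 8 with the largest loss were Ccl5 (12.5% against 91.2%), Mctp2, Ccl4 (8.33% against 73.5%), Gpr18, Gzmk, Itgae, Serpinb9 and Prf1. Mctp2 reached 10 reads in 0 of 24 cells and in 65.5% of the others.

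Over the kept SI cells and 8185 candidate genes, the pattern most like that of Il17a was Aqp3 (Spearman correlation 0.71), followed by Dhrs3 (0.61), Tmem176a (0.60), Tmem176b (0.60) and Ccr1 (0.57). Il1r1 was most like Dhrs3 (0.68), Ccr1 (0.64), Sdc4 (0.62), Ppp1r14c (0.62) and Aqp3 (0.61). Rora had weaker partners, led by Tmem176b (0.44), Dhrs3 (0.41) and Il1r1 (0.40). Dhrs3 and Aqp3 were among the 5 genes most like all 3 of these members. The lists come from the same cells and are not independent of each other.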

How the data were processed

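Single IL-10 reporter positive CD4+ T cells were profiled by SMART-seq2, which amplifies whole transcripts and adds no molecular identifiers. The authors used STAR for alignment in 2 passes, and raw read counts per gene were deposited, 1 column per cell. The build is given as mm10 in the submitters' processing notes and otherwise in the study's methods, and the counting tool and annotation are not given in the sources used here, so gene positions and exon lengths come from GENCODE (GRCm38) and do not enter the counts. None of the 764 columns was left unused.

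A cell was kept when neither log reads nor log genes fell beyond 3 median absolute deviations under its tissue's median (161898 reads for spleen, 170584 for small intestine) and cyclone (scran 1.30.0) called it G1. CPM was computed per cell from the deposited counts without the reporter row. Rows joining several genes (88) were not named. A gene was detected in a cell at 10 reads or more, and log2 ratios used a pseudocount of 1 CPM, which understates changes of low genes.

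Some genes of the lists are not reported here. Cells were sorted singly into wells and no doublet caller was run. No test was run, since the labels name no animal. Intervals are exact binomial at 95% and, like limits from a count of 0, cover counting error only, because amplified copies of a molecule are counted as separate reads. A share of 0 allows 3 cells of the total. The call rule was tested on simulated data. Simulated reads were spread more evenly over cells than those of the members, so calls on genes held by few cells were not checked. The genes named were the members, Il10, Gzma, the gene lists, the 5 genes most correlated with each member found in at least 10% of small intestine cells, and the 8 genes each way with the largest difference in share. The members and lists were chosen with earlier results of these data known. Alternatives covered cell filters, thinning to 200000 reads, thresholds, pseudocounts, TMM (edgeR 4.0.16) and DESeq2 1.42.0 factors, spleen sets and single cells. Python 3.11.15 and R 4.3.3 were used.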

Additional observations from a re-analysis of the deposited data

Results flagged for a closer look

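Cells called S or G2M were left out of the comparisons above, yet among the 34 such SI cells 10 had at least 10 Il17a or Il17f reads (29.4%, interval 15.1 to 47.5). Spleen cells called S or G2M held 4 (2.80%, interval 0.767 to 7.01). This signal was listed because it lies in cells outside the main values and above the level in the spleen. Il17a reached 10 reads in 9 of the 34 cells, Il17f in 8, Il23r in 6, Il22 in 5, Ccl20 in 3 and Ccr6 in 2. The difference from the kept SI cells was not tested.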

How the results depend on the processing

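The number of members higher in the SI was 7 under each of the 11 alternatives run, and none of the 80 values of single members crossed the 2-fold limit in either direction or changed sign while past it. Leaving out the filter on mean CPM could not change that number, since all 8 members passed the filter. Of the 7 higher members Il23r came nearest the limit, at a log2 ratio of 1.01 with a pseudocount of 10 CPM. The log2 ratio of Ccr6, which was past 2-fold under none of the alternatives, ranged from -0.40 to 0.51. With at least 1 read in place of 10, the share of cells with Il17a or Il17f was 28.5% in the SI and 3.75% in the spleen, and the share with Gzma was 100% in both groups of SI cells while the share with Il10 was 100% in the cells with Il17a or Il17f. With at least 50 reads asked of Il17a or Il17f and of Gzma alike, which also changes the cells compared, Gzma was found in 38.9% of the cells with Il17a or Il17f. With 100 Gzma reads in the same 24 cells, a threshold chosen after seeing the data, the share was 41.7%. Thinning to 200000 reads gave 50% against 88.2%. Well columns 13 to 18 and 19 to 24, also split after seeing the data, gave 75% and 62.5% for cells with Il17a or Il17f and 88.3% and 92.5% for the others. The remaining alternatives of these shares stayed within the interval of the reported value. Values without the cell holding the most reads of Il22 or Ccr6, and Il22 counted with Iltifb, were likewise added after seeing the data. Low counts of Il17f and Gzma occur in p2 spleen cells, and their source was not tested. No paired analysis was possible because the labels name no animal and no result comes from a test.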

Other observations

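The reporter row, counted apart from the genes, had at least 10 eGFP reads in 13 of the 24 SI cells with Il17a or Il17f (54.2%, interval 32.8 to 74.4) and in 78 of the others (69.03%, interval 59.6 to 77.4). Mean levels, scaled as CPM, were 162.4 and 161.8, and medians were 61.3 and 92.5. In the spleen 46.5% of cells reached 10 reads, from 32.8% in p2 to 53.1% in p1 columns 13-24.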
